A study of Mus musculus with 6 samples.

Results

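The genes described here are the potassium channel subunits, taken as every gene whose symbol starts with Kcn and a lowercase letter and that had a probe set of its own, with the imprinted antisense transcript Kcnq1ot1 left out. This gave 89 of the 22180 genes measured on the arrays, each read through its brightest single-gene probe set. Of these, 88 encode proteins in the RefSeq gene table and 1, Kcnd3os, is an antisense transcript of Kcnd3 that the same naming rule brings in. RNA came from the ventral midbrain of male mice 2 months of age, 3 labelled Bach1 KO and 3 labelled WT, with no treatment, and was read on 6 one-colour Affymetrix arrays. The labels state neither the strain and the design of the knockout allele nor that each array holds 1 animal, so a p-value here reflects only how these samples vary, which may be technical. The comparison asks which of these transcripts differ when BACH1, a heme-binding repressor of antioxidant and iron genes, is knocked out.

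Potassium channels let potassium leave the cell, which sets the resting potential, ends action potentials and paces firing. Pore-forming subunits fall into voltage-gated, calcium- or sodium-activated, inward-rectifying and two-pore families, and accessory subunits change their gating and traffic. In dopamine neurons of the ventral midbrain, G-protein-gated inward rectifiers carry the inhibition that dopamine autoreceptors and GABA-B receptors exert, A-type channels and small-conductance calcium-activated channels slow the pacemaker, and ATP-sensitive channels couple firing to metabolism. Astrocytes of the same tissue take up potassium through inward rectifiers of their own.

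All levels are log2 values that the authors deposited after RMA, so a difference of 1 is a doubling. Array medians ran from 5.58 to 5.69, and with 3 arrays a group the precision is limited by their number. Dopamine neuron markers included bright ones, which goes with the tissue label. Slc6a3, the dopamine transporter, lay between 11.69 and 12.17 and Th, the enzyme that starts dopamine synthesis, between 11.02 and 11.49. Others of the 7 listed were dimmer, with means of 6.29 for Pitx3 and 6.95 for En1. The Bach1 probe set was not lower on the knockout-labelled arrays (log2 difference 0.11, limma, adjusted p = 0.74), while Hmox1, which BACH1 represses, was higher by 1.95 (limma, adjusted p = 0.0181), so directions here follow the labels. The Hmox1 call was lost with the replicate block and with any array left out. Knockout-labelled replicate 2 and wild-type replicate 1 stood apart from the other arrays in markers of cortex and of thalamus, respectively. Markers of cortex and hippocampus averaged 0.63 above the mean of all arrays on knockout-labelled replicate 2, and thalamus markers 0.45 above it on wild-type replicate 1. Hypothalamus markers varied more, from -1.26 on knockout-labelled replicate 3 to 1.21 on wild-type replicate 3. Their means were lower on the knockout-labelled arrays for 7 of 7 measured genes, with a score difference of -1.02. Levels differed among these genes, with a mean of 5.15 for Pomc, while Pmch ran from 7.65 on knockout-labelled replicate 3 to 11.39 on wild-type replicate 3. A comparison without knockout-labelled replicate 2 and wild-type replicate 1 keeps both of the arrays at these extremes. Scores for neurons, astrocytes, oligodendrocytes and their precursors and microglia stayed between -0.16 and 0.091. In tissue RNA, fewer cells of a type and less RNA per cell cannot be told apart.

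No potassium channel subunit passed the test between genotypes. Limma called 0 of 89 at an adjusted p of 0.05, where 0.00451% of all genes were called, and the smallest adjusted p among the 89 was 0.596. At an unadjusted p under 0.05 there was 1 member, or 1.12%, against 6.51% of all genes. For 4 members, or 4.49%, no knockout-labelled value lay within the wild-type range or the reverse, against 14.3% of all genes. Of these, 3 lay higher, where 6.36% of all genes did, and 1 lower, where 7.94% did. The mean was higher on the knockout-labelled arrays for 49 members and lower for 40, a share of 55.1% higher against 46.9% of all genes. It was higher for 35 members when each array was centred on its median. That setting lowered other genes too, with a median log2 difference of -0.057 over all genes and -0.035 over the members. The median log2 difference was 0.012, against -0.0098 over all genes, and all 89 values, from -0.33 to 0.38, lay inside the range that held the middle 95% of genes, -0.33 to 0.39. For 80 of the 89 the 95% interval lay within a 1.5-fold change either way, and for 85 within a 2-fold change. The spread between arrays of 1 group was like that of other genes, with a median SD of 0.14 for the members and 0.13 for all genes. Without knockout-labelled replicate 2 and wild-type replicate 1, limma called 0 of 89, and 5 members reached an unadjusted p under 0.05, or 5.62% against 5.8% of all genes.

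**Figure D1:**
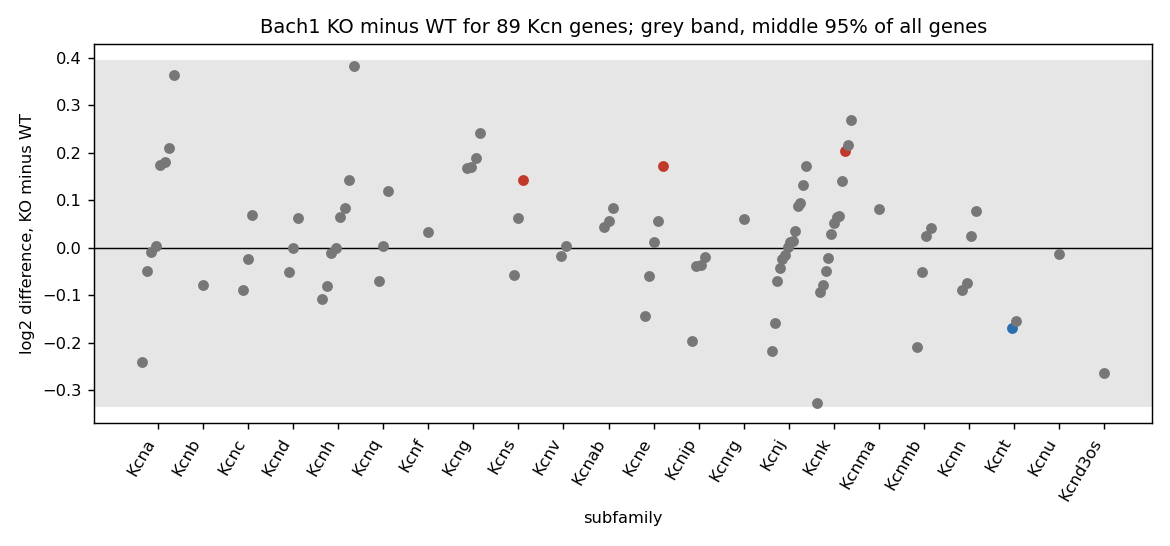
Log2 difference between the mean of 3 knockout-labelled and 3 wild-type arrays (vertical axis) for each of the 89 genes, placed by subfamily. Red points are the 3 genes whose knockout-labelled values all lay above the wild-type values, the blue point is Kcnt1, whose values all lay below, grey points overlapped, and all points sit inside the grey band, which holds the middle 95% of all genes.

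Most subfamilies had members far above the dimmest probe sets. Mean levels over all arrays ran from 8.97 to 10.3 in the Kcnc subfamily of fast-spiking channels, from 7.49 to 10.6 in the A-type Kcnd subfamily and from 7.15 to 10.6 in its partners of the Kcnip subfamily. The large families spread widely, from 5.01 to 10.8 in Kcna, from 5.52 to 8.95 in Kcnh, from 5.04 to 10.3 in Kcnk and from 3.95 for Kcnj1 to 11.5 for Kcnj10 in Kcnj. The Kcne subfamily, partners of channels best known from heart and epithelia, ran from 4.72 to 8.58, and the silent subunits as a class from 4.46 to 8.06. A gene was counted as measured above the dimmest probe sets when its mean over all arrays exceeded 5.07, the 40th percentile of probe set means. This held for 78 members, or 87.6%, against 71.2% of all genes. The 11 others were Kcna7, Kcna10, Kcne1, Kcne3, Kcnj1, Kcnk5, Kcnmb3, Kcnn4, Kcnrg, Kcnu1 and Kcnv2. Several of these have their known roles elsewhere, Kcnj1 in the kidney, Kcnu1 in sperm and Kcnv2 in photoreceptors. Brightness depends on each probe set's sequence, so levels of different genes were not ranked against each other.

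**Figure D2:**
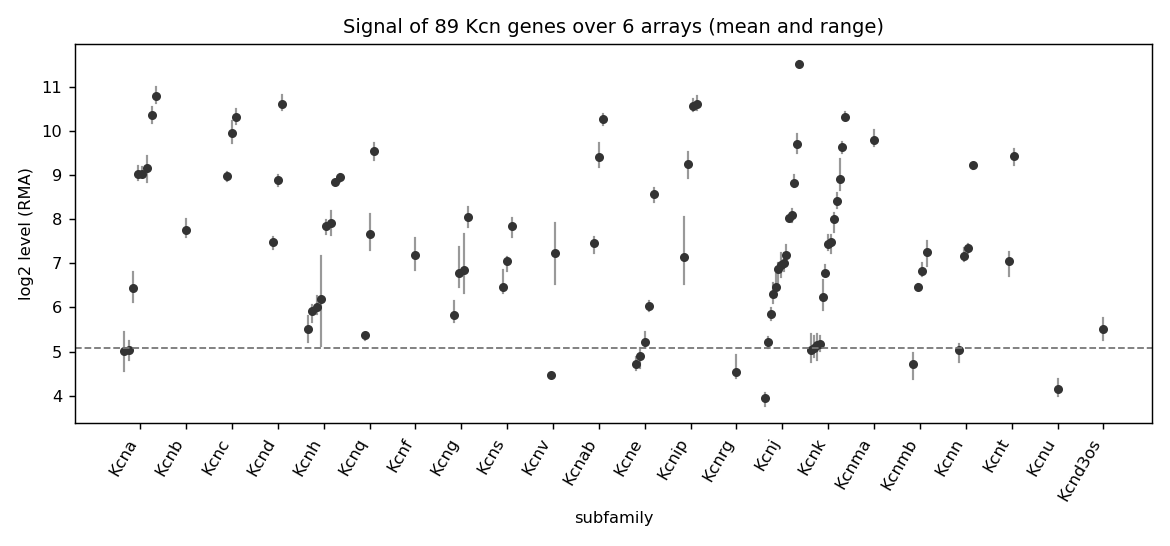
Log2 level of each of the 89 genes, placed by subfamily. Each point is the mean over 6 arrays and each grey bar runs from the lowest to the highest array; the dashed line at 5.07 marks the 40th percentile of all probe set means, and the 3 longest bars belong to Kcnh3, Kcnip2 and Kcnv1.

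Promoter sequences were read because BACH1 acts through antioxidant response elements. RefSeq start sites (GRCm38.p6) gave windows of 250 bases before to 50 after the start for 69 of the 89 genes. The element's core, TGACNNNGC on either strand, occurred in 13 of these, or 18.84%, against 13.99% of 27025 genes. A gene was counted when any of its windows held the letters, so genes with more start sites had more chances. The 27025 are all genes with a window, whether or not they were measured on the arrays. The letters TGAGTCA, the core bound by AP-1 factors, whose reverse complement can overlap the first motif, occurred in Kcnip3 and Kcnk2, or 2.9%, against 5.95%. A longer Maf recognition element that contains those letters occurred in 0 of the 69, against 0.17% of genes. The 13 genes with the core were Kcna4, Kcna6, Kcnab1, Kcnab2, Kcnc4, Kcne2, Kcne4, Kcnh5, Kcnj6, Kcnj16, Kcnk12, Kcnn1 and Kcns3. Of these, 9 had a higher and 4 a lower mean, with log2 differences of -0.090 to 0.17 and a median of 0.044. The 56 genes with a window and without the core had 27 higher and 29 lower, from -0.33 to 0.36, with a median of -0.00031. A match of these letters is not a binding site, and limma called 0 genes in either set. The windows of 4 of the 13 are given as 80 bases of the gene's strand upstream of a start, with the core in capitals, chosen to show Kcnj6 at 2 start sites, the glial subunit Kcnj16, and Kcns3 and Kcna6, whose brightest or second probe sets did not overlap between the groups.
Kcnj6, chr16:94997697-94997776, minus strand: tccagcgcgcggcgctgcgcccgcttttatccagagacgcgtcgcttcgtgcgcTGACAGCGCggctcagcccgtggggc
Kcnj6, chr16:94856843-94856922, minus strand: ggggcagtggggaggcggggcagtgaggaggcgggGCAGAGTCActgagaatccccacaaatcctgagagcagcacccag
Kcns3, chr12:11150544-11150623, minus strand: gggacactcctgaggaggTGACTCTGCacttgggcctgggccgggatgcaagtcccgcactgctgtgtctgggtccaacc
Kcna6, chr6:126740675-126740754, minus strand: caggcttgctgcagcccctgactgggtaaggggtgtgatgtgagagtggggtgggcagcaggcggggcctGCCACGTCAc
Kcnj16, chr11:111019505-111019584, plus strand: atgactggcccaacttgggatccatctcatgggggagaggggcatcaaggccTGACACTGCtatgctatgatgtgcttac
The core reads forward in Kcns3, Kcnj16 and the first Kcnj6 window, and in reverse complement in Kcna6 and the second Kcnj6 window. Its first base lies 26 and 197 bases before the start in the Kcnj6 windows, 232 in Kcns3, 10 in Kcna6 and 28 in Kcnj16. Before the same start Kcnj16 has another core, not shown, in reverse complement with its first base 160 bases away. The log2 differences of these 4 genes, 0.17 for Kcnj6, 0.14 for Kcns3, 0.17 for Kcna6 and -0.016 for Kcnj16, did not pass the test. Kcna6, Kcnj6 and Kcns3 had the highest log2 differences of the 13, so the windows shown do not represent the whole set. Of the 4 genes with a lower mean only Kcnj16 is shown, and the lowest, Kcnc4 at -0.090, is not.

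G-protein-gated inward rectifiers showed no difference beyond the spread between arrays. Kcnj6 encodes the subunit that dopamine neurons use most, and its level was 7.06, 7.41 and 7.34 on knockout-labelled replicates 1 to 3 and 7.20, 7.05 and 7.04 on wild-type replicates 1 to 3, the order used for all values by array. The groups overlapped, since knockout-labelled replicate 1 was as low as the lower wild-type arrays. The log2 difference was 0.17 (SE 0.12, 95% interval -0.12 to 0.46, limma, adjusted p = 0.73), a 1.13-fold higher mean. Dopamine neuron markers were higher in 6 of 7 genes on the knockout-labelled arrays, with mean deviations of 0.13, -0.11 and 0.24 on knockout-labelled replicates 1 to 3 and from -0.20 to -0.030 in wild type. Their part in the Kcnj6 values was not tested. Kcnj9, the partner of Kcnj6 in dopamine neurons, lay between 8.72 and 8.89 in the knockout-labelled group against 8.78 to 9.01 in wild type (log2 difference -0.069, 95% interval -0.31 to 0.17). Kcnj3, which forms channels with Kcnj6 in most other neurons, differed by 0.093 (95% interval -0.24 to 0.42), and Kcnj5, known best from the atrium of the heart, by 0.012 (95% interval -0.23 to 0.25). Genes for the receptors that open these channels were also close to 0. The dopamine receptor gene Drd2 differed by 0.044, and the GABA-B receptor genes Gabbr1 and Gabbr2 by -0.024 and -0.0097.

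The remaining inward rectifiers included the glial and ATP-sensitive subunits. Kcnj10, the main potassium uptake channel of astrocytes, was at 11.53, 11.47 and 11.56 in the knockout-labelled group against 11.58, 11.48 and 11.50 in wild type. Its log2 difference was 0.0016 (95% interval -0.19 to 0.19), and the groups overlapped. Kcnj16, which joins Kcnj10 in the same channels, differed by -0.016 (95% interval -0.21 to 0.17). Kcnj11, the pore of the neuronal ATP-sensitive channel, differed by 0.035 and Abcc8, its sulfonylurea receptor and its neighbour in the gene table, by 0.058, with adjusted p-values of 0.942 and 0.914 (limma). Kcnj8, the pore of the ATP-sensitive channel of pericytes and smooth muscle, had the smallest p of the 14 inward rectifiers. It was at 6.97, 6.69 and 6.92 in the knockout-labelled group against 7.24, 7.12 and 6.88 in wild type, so that wild-type replicate 3 overlapped with the knockout-labelled group. The log2 difference was -0.22 (SE 0.13, 95% interval -0.53 to 0.097, limma, adjusted p = 0.694). Abcc9, the receptor subunit that joins Kcnj8 and lies next to it in the gene table, did not overlap between the groups, at 7.01 to 7.10 against 7.12 to 7.43, a log2 difference of -0.24 (limma, adjusted p = 0.612). Endothelial and pericyte markers, a list that holds Abcc9, were lower in 8 of 8 genes, with scores of -0.19 to 0.0077 in the knockout-labelled group against 0.045 to 0.13 in wild type. Their part in the Kcnj8 values was not tested. Without knockout-labelled replicate 2 and wild-type replicate 1 the Kcnj8 difference was -0.054. The others, Kcnj1, Kcnj2, Kcnj4, Kcnj12, Kcnj14 and Kcnj15, ranged from -0.16 for Kcnj2 to 0.13 for Kcnj4.

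Among 13 two-pore subunits, which carry background potassium current, 8 had a higher and 5 a lower mean. Kcnk7 was the member with an unadjusted p under 0.05, and its adjusted p was 0.596 (limma). Its level was 5.20, 5.30 and 5.35 in the knockout-labelled group against 5.10, 5.11 and 5.02 in wild type, with a log2 difference of 0.20 (95% interval 0.0060 to 0.40). The groups did not overlap, but the probe set was dim, with 42.1% of probe set means below it. Kcnk7 is a relative of Kcnk1 for which no current of its own is known. The next smallest p-values also came from probe sets near that cut, with means of 5.09 for Kcnk18 and 5.04 for Kcnk5. Kcnk18, a channel known best from sensory neurons, was at 5.30, 5.35 and 5.005 against 5.018, 4.87 and 4.97 (log2 difference 0.27, 95% interval -0.015 to 0.55, limma, adjusted p = 0.614). Kcnk5, an alkaline-activated channel, was at 5.09, 4.76 and 4.78 against 5.20, 5.40 and 5.01, the lowest difference of all members at -0.33 (95% interval -0.68 to 0.023, limma, adjusted p = 0.615). In both genes 1 knockout-labelled array overlapped with the wild-type range. The groups overlapped for the bright two-pore subunits named by the rule, with Kcnk1, a weakly conducting channel common in brain, at 10.31 ± 0.074 against 10.33 ± 0.086 and the acid-sensitive Kcnk9 at 9.60 ± 0.13 against 9.68 ± 0.054 (SD, n = 3). Kcnk2, Kcnk4, Kcnk6, Kcnk10, Kcnk12, Kcnk13, Kcnk15 and Kcnk16 ranged from -0.094 to 0.22.

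Voltage-gated pore subunits split evenly, 13 higher and 13 lower among 26, with a median log2 difference of 0.0015. Kcna1, a low-threshold channel of axons, had the smallest p of this class. It was at 10.32, 10.51 and 10.55 in the knockout-labelled group against 10.36, 10.20 and 10.19 in wild type, where wild-type replicate 1 lay above knockout-labelled replicate 1. The log2 difference of 0.21 (SE 0.10, 95% interval -0.035 to 0.45) did not pass (limma, adjusted p = 0.633). Kcna6, its neighbour in the gene table, was at 9.21, 8.99 and 9.16 against 9.001, 8.89 and 8.94, a log2 difference of 0.17 (95% interval -0.050 to 0.40, limma, adjusted p = 0.664). A dimmer probe set of Kcna6 did not overlap between the groups, at 7.09 to 7.14 against 6.78 to 7.005, with a log2 difference of 0.22 (limma, adjusted p = 0.597). Kcna5, on the other side of Kcna1, had a log2 difference of -0.24, opposite in sign to its neighbours. Kcna5 was at 6.11 on wild-type replicate 1 and at 6.79 and 6.81 on the other wild-type arrays. Kcna2, which joins Kcna1 in axons, differed by -0.0079 (95% interval -0.30 to 0.28). Its neighbours Kcna3 and Kcna10 differed by -0.050 and 0.18, and Kcna4 by 0.0033. Kcna7, known from muscle, had a large but imprecise difference of 0.36 (95% interval -0.089 to 0.82) on a dim probe set.

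Channels of the A-type and fast-spiking classes were close to 0. Kcnd3, the pore of the A-type current in dopamine neurons, was at 8.83, 8.92 and 8.90 in the knockout-labelled group against 9.001, 8.91 and 8.75 in wild type. The log2 difference was -0.00032 (SE 0.095, 95% interval -0.23 to 0.23). Its antisense transcript Kcnd3os had a log2 difference of -0.26 (95% interval -0.58 to 0.055, limma, adjusted p = 0.641), and knockout-labelled replicate 1 lay inside the wild-type range. Kcnd1 and Kcnd2 differed by 0.064 and -0.050. Kcnc1, which lets neurons fire at high rates, had values of 10.29 to 10.31 in the knockout-labelled group against 10.16 to 10.50 in wild type (log2 difference -0.024). Kcnc2 and Kcnc4 of the same subfamily differed by 0.069 and -0.090, and Kcnb2, a delayed rectifier, by -0.079. Of the subunits behind the muscarine-sensitive current, Kcnq3 differed by 0.12 (95% interval -0.17 to 0.41) and Kcnq5 by 0.0044, and the epithelial and cardiac Kcnq1 by -0.069. The 8 Kcnh genes ranged from -0.11 for Kcnh1 to 0.38 for Kcnh3. Kcnh8 had the smallest p among them (log2 difference 0.14, limma, adjusted p = 0.751), and Kcnh2, which also sets repolarisation in the heart, differed by -0.00029.

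**Figure D3:**
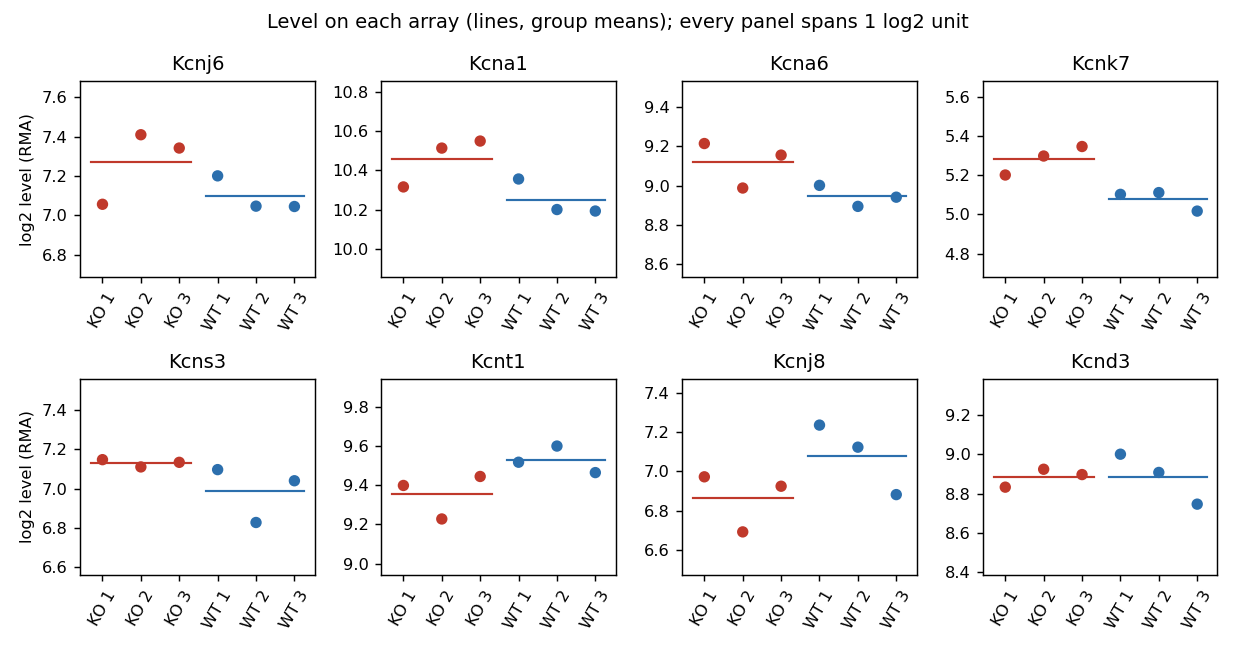
Log2 level (vertical axis) of 8 genes on each of the 3 knockout-labelled arrays (red) and 3 wild-type arrays (blue), with lines at the group means; every panel spans the same height, 1 log2 unit. The groups separate for Kcnk7, Kcns3 and Kcnt1 by margins that are small beside the scale, while the means of Kcnd3 coincide.

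Silent subunits form no channel alone and change the gating of Kcnb channels. Of 10, 8 had a higher and 2 a lower mean, with a median of 0.10. Kcns3 was at 7.15, 7.11 and 7.13 in the knockout-labelled group against 7.10, 6.83 and 7.04 in wild type. The groups did not overlap, but wild-type replicate 1 lay just below the knockout-labelled values, and the log2 difference of 0.14 (95% interval -0.092 to 0.38) did not pass (limma, adjusted p = 0.724). All 4 Kcng genes had higher means, from 0.17 for Kcng3 to 0.24 for Kcng1, with adjusted p-values of 0.715 to 0.878 (limma). The subfamily's mean lay 0.40 above that of all arrays on knockout-labelled replicate 2 and at -0.13 and 0.016 on the other knockout-labelled arrays. Without knockout-labelled replicate 2 the differences of Kcng1 and Kcng3 were -0.10 and -0.079, while those of Kcng2 and Kcng4 were 0.082 and 0.27. Without wild-type replicate 1 the differences of Kcng1 and Kcng3 were 0.041 and 0.055. Kcns1, Kcns2, Kcnf1, Kcnv1 and Kcnv2 ranged from -0.058 to 0.064.

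Accessory subunits were also close to 0 as a class, with 7 higher and 6 lower of 13 and a median of 0.012. Kcnip3, the calcium-binding subunit that joins Kcnd3, was at 10.67, 10.63 and 10.51 against 10.79, 10.67 and 10.47, and Kcnip4 at 10.56, 10.60 and 10.49 against 10.73, 10.52 and 10.46. The groups overlapped in both genes, with log2 differences of -0.038 and -0.020. Kcnip1 was at 9.25, 8.93 and 9.28 against 9.21, 9.30 and 9.53 (log2 difference -0.20, 95% interval -0.53 to 0.14, limma, adjusted p = 0.735), and the difference was -0.084 without knockout-labelled replicate 2. The membrane proteins Dpp6 and Dpp10, which complete A-type channels, differed by -0.079 and -0.0093. The beta subunits Kcnab1, Kcnab2 and Kcnab3, which bind Kcna channels, differed by 0.083, 0.044 and 0.057. Kcne1, a partner of Kcnq1, was at 4.88, 4.77 and 4.76 against 4.60, 4.58 and 4.72. Its groups did not overlap on a dim probe set (log2 difference 0.17, 95% interval -0.031 to 0.37, limma, adjusted p = 0.636). Kcne1l, Kcne2, Kcne3, Kcne4 and the assembly regulator Kcnrg ranged from -0.14 to 0.061.

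Calcium- and sodium-activated subunits had 5 higher and 7 lower means among 12. Kcnt1, a sodium-activated channel, was the member that separated in the lower direction, at 9.40, 9.23 and 9.44 in the knockout-labelled group against 9.52, 9.60 and 9.46 in wild type. Knockout-labelled replicate 3 and wild-type replicate 3 were nearly level, and the log2 difference of -0.17 (SE 0.093, 95% interval -0.40 to 0.057) did not pass (limma, adjusted p = 0.674). Kcnt2, its relative, differed by -0.15. Kcnn3, the small-conductance channel that regularises dopamine neuron firing, varied little over the arrays, from 9.22 to 9.25 against 9.15 to 9.28 (log2 difference 0.024, 95% interval -0.16 to 0.21). Kcnn1, Kcnn2 and Kcnn4 differed by -0.075, 0.078 and -0.090. Kcnma1, the pore of the large-conductance channel, differed by 0.082 (95% interval -0.20 to 0.36). Kcnmb1, its beta subunit in smooth muscle, was at 7.21, 6.94 and 7.32 against 7.31, 7.51 and 7.29, a log2 difference of -0.21 (95% interval -0.52 to 0.10, limma, adjusted p = 0.705) that was -0.10 without knockout-labelled replicate 2. The endothelial and pericyte markers described with Kcnj8 were lower too, and their part in the Kcnmb1 values was not tested. Kcnmb2, Kcnmb3, Kcnmb4 and Kcnu1 ranged from -0.051 to 0.042.

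Genes that work with potassium channels without being Kcn genes were also close to 0. Of 27 such partners, limma called 0, 1 reached an unadjusted p under 0.05, or 3.7% against 6.51% of all genes, and 4 did not overlap between the groups, or 14.8% against 14.3% of all genes. Those 4 all lay lower on the knockout-labelled arrays, where 7.94% of all genes did: Abcc9, Dpp6, Gnb5 and Tmem175. They were not chosen by the rule for named genes but singled out after their values were seen. Tmem175, the lysosomal potassium channel, was at 9.21, 9.17 and 9.22 in the knockout-labelled group against 9.47, 9.40 and 9.40 in wild type. Its log2 difference of -0.22 (95% interval -0.40 to -0.044) did not pass over all probe sets (limma, adjusted p = 0.557).

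Between arrays, rather than between genotypes, a few subunits varied much more than the rest. The 8 members with the widest range over the 6 arrays were Kcnh3, Kcnip2, Kcnv1, Kcng1, Kcna7, Kcng3, Kcnq5 and Kcnf1, from 2.04 for Kcnh3 down to 0.73 for Kcnf1, picked after their values were seen, with Kcnk4 next at 0.71. The median range was 0.38 for the members and 0.37 for all genes. All 8 were highest on knockout-labelled replicate 2, and 5 of them were lowest on wild-type replicate 1. Kcnh3, a slow voltage-gated channel of the forebrain, was at 5.85, 7.16 and 6.11 in the knockout-labelled group against 5.13, 6.72 and 6.13 in wild type. Kcnip2, an A-type channel subunit, was at 6.70, 8.06 and 6.64 against 6.54, 7.70 and 7.27. Kcnv1, a silent subunit, was at 6.74, 7.91 and 7.07 against 6.52, 7.85 and 7.34. In these 3 genes the second array of each group was the brightest and the groups overlapped widely. Cortex and hippocampus markers were also highest on the second array of each group, over 6 of 7 listed genes, 5 higher and 1 lower between the group means. Their scores were -0.26, 0.63 and -0.20 in the knockout-labelled group against -0.22, 0.12 and -0.063 in wild type, lowest on knockout-labelled replicate 1. Among them Neurod2, a transcription factor of excitatory forebrain neurons, was at 6.68, 8.76 and 7.31 against 6.51, 7.90 and 7.43. Not all listed genes followed that order, with Emx1 highest on knockout-labelled replicate 1 at 5.52 and Tbr1 highest on wild-type replicate 3 at 5.08. Slc17a7 was at 9.84 on wild-type replicate 1 and 9.52 on wild-type replicate 2. Choroid plexus and ependyma markers were highest on the second array of each group too, and lowest on wild-type replicate 1. Their scores were -0.089, 0.26 and -0.028 against -0.33, 0.30 and -0.12. The part of either marker list in the channel values was not tested. Kcna7, on a dim probe set, was lowest on wild-type replicate 2, unlike the 3 genes above.

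These genes were chosen for their range and all 8 peak on knockout-labelled replicate 2, so leaving that array out must lower their difference, and the values are a description. Kcnip2 differed by -0.036 on all arrays (95% interval -1.17 to 1.10) and by -0.82 without knockout-labelled replicate 2 and wild-type replicate 1 (limma, adjusted p = 0.645). Kcnv1 moved from 0.0031 to -0.69 and Kcnh3 from 0.38 to -0.44 under the same omission, with adjusted p-values of 0.657 and 0.749 (limma), and Kcna7 from 0.36 to 0.33. None of the 89 passed in that smaller comparison of 2 against 2 arrays.

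**Figure D4:**
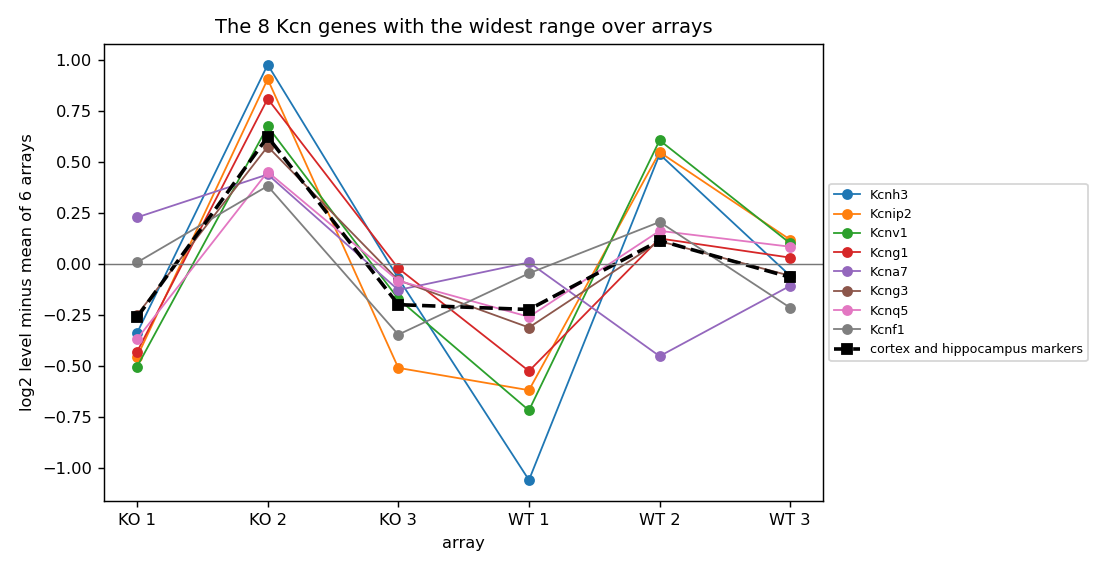
Log2 level minus the mean of all 6 arrays (vertical axis) on each array for the 8 genes with the widest range, with the mean of 6 cortex and hippocampus markers as black squares; lines only join the points of 1 gene, since replicates have no order. Every gene peaks on knockout-labelled replicate 2, and Kcnh3 spans 2.04 log2 units.

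More members peaked on wild-type replicate 1 than on any other array. It held the highest value of 23 members, or 25.8%, against 18.2% of all genes, and knockout-labelled replicate 2 that of 21 members, or 23.6%, against 17.0%. The members that peaked on wild-type replicate 1 included Kcnk4, Kcnab3, Kcnc1, Kcnc2, Kcnd2 and Kcna2. Kcnab3 was at 9.74 there and at 9.19 to 9.45 on the other arrays, and Kcnk4, a mechanically gated channel, at 9.36 against 8.65 to 8.99. On its dimmer probe set Kcnab3 was highest on knockout-labelled replicate 3, at 5.81, against 5.70 on wild-type replicate 1. Thalamus markers were also highest on wild-type replicate 1, with a score over 5 of 5 genes of 0.45 against -0.28 to 0.15 on the others. Their part in these values was not tested.

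A probe set that Kcnj13 shares with Gigyf2 varied more than any single-gene one of the Kcn family. Kcnj13 encodes an inward rectifier of the choroid plexus, and this probe set cannot be assigned to either gene. It was at 7.56, 6.45 and 6.57 in the knockout-labelled group against 6.20, 8.64 and 8.55 in wild type, with a log2 difference of -0.93 (limma, adjusted p = 0.75). Meningeal fibroblast markers were high on the same arrays, with scores of 0.43 and 0.40 on wild-type replicates 2 and 3 and -0.49 on wild-type replicate 1. On the knockout-labelled arrays they were at 0.075, -0.43 and 0.021. Striatum markers, with 4 of 7 listed genes measured, were at 0.051, -0.26 and -0.12 against -0.38, 0.35 and 0.36. Choroid plexus and ependyma markers were at -0.089, 0.26 and -0.028 in the knockout-labelled group against -0.33, 0.30 and -0.12 in wild type, and so were also high on knockout-labelled replicate 2, where the shared probe set was low. The choroid plexus genes did not peak together. Ttr and Folr1 were highest on knockout-labelled replicate 2, Kl, Clic6 and Foxj1 on wild-type replicate 2, and Ccdc153 on knockout-labelled replicate 3. The fibroblast and choroid plexus lists each had 6 of 6 genes measured. The part of any of these lists in the values was not tested. In all, 4 probe sets were shared by a Kcn gene and another gene. The brighter one of Kcnk3 and Gm9899 did not overlap between the groups, at 8.76 to 8.88 against 8.95 to 9.001 in wild type. Its log2 difference of -0.13 did not pass (limma, adjusted p = 0.694). The groups overlapped on their dimmer one (log2 difference -0.070) and on that of Kcnmb4 and Kcnmb4os1 (0.24).

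Members with a second probe set of their own allowed a check within a gene. There were 7 such genes, Kcna4, Kcna6, Kcnab3, Kcnj3, Kcnma1, Kcnmb4 and Kcnq5, each with 1 dimmer probe set. Of these, Kcna4 disagreed most, with a log2 difference of 0.23 on the dimmer probe set (limma, adjusted p = 0.681) and 0.0033 on the brighter one. Kcnab3 was the gene whose probe sets differed in sign, at -0.075 on the dimmer one and 0.057 on the brighter one.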

How the data were processed

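Per the labels' protocols, ventral midbrain RNA was isolated with Trizol and a Qiagen clean-up, then biotin-labelled. The authors deposited log2 values per probe set, which were made with RMA per the submitters' processing notes, with no version stated there. All 41345 probe sets of 6 arrays were tested with limma 3.58.1 in R 4.3.3 (lmFit and eBayes, no covariates), with Benjamini-Hochberg adjustment over all probe sets and a threshold of 0.05. RMA aligns the arrays, so a shift of most genes would be removed. A platform annotation gave 1 gene for 23521 probe sets, of which 23328 matched RefSeq (GRCm38.p6) by Entrez identifier. A gene with several probe sets was represented by the brightest, averaged over the arrays. Marker scores are mean deviations from the mean of all arrays. The labels give no batch. Replicate numbers were not used as a pairing. The rule names 23 index genes where measured, the 12 members with the smallest p and the member with the smallest p in each subfamily of 3 or more. Values of other genes account for the rest of a subfamily, stand at the end of a range or were picked after they were seen. Members and lists were chosen with earlier results of these data known. The test was also tested on simulated data. Alternatives are given in the closing section.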

Additional observations from a re-analysis of the deposited data

How the results depend on the processing

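Across 14 alternatives (moderated variances with trend and robust fitting, renewed quantile normalization, median centring, removal of dim probe sets, array weights, the mean over a gene's probe sets, the replicate block, each array left out and 2 arrays left out), limma called 0 potassium channel subunits and 0 partner genes, with the smallest adjusted p among members between 0.447 and 0.846. The 3 probe sets called over the whole table were 3 under the rescaling, weighting, filtering and variance alternatives. They were 0 with the replicate block, 0 with each array left out in turn, and 0 without knockout-labelled replicate 2 and wild-type replicate 1, where fewer arrays or degrees of freedom remain, so the Hmox1 call is lost there. The replicate block changed no other call, and same-numbered samples did not deviate together (r = 0.086, -0.033 and 0.039 over probe sets). The median difference of the members, 0.012, was -0.035 after median centring, a setting that also shifted the median of all genes to -0.057, and ran from 0.00030 to 0.037 with single arrays left out, the highest without wild-type replicate 1. Members with no overlap numbered 7, not 4, after renewed quantile normalization (7.87% against 12.9% of genes). Fewer arrays make separation easier, and they numbered from 5 without wild-type replicate 2 (5.62% against 21% of genes) to 27 without wild-type replicate 1 (30.3% against 28.4%), and 41 without the 2 arrays above (46.1% against 40.2%). These counts were added after seeing the data. Of 37 named genes, 23 kept their sign in all alternatives run and 14 did not.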
